A study of Homo sapiens with 6 samples.

Results

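The genes described are 10 members of the ATF4 amino acid response: ATF4, DDIT3, TRIB3, CHAC1, ASNS, PHGDH, PSAT1, PSPH, SHMT2 and MTHFD2. They were chosen by symbol, as genes known for this response, with earlier results of these data known. All 10 were found among the 56982 identifiers present in both deposited FPKM tables. FPKM is a fragment count scaled to transcript length and to library size. All 10 also passed the filter on low values, among 15001 genes tested. The RNA was from U2OS, an established human osteosarcoma cell line, harvested at 65 to 75% confluency. The labels give 10% serum for every library. The 3 G3C2 libraries were labelled ZFP36L1 deficient after CRISPR/Cas9 editing of ZFP36L1, which encodes an RNA-binding protein that shortens the life of mRNAs with AU-rich elements. The 3 WT libraries carried no labelled edit. G3C2 appears in the labels as a single name, read here as 1 clone, so genotype and clone cannot be told apart.

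ATF4 is a basic leucine zipper transcription factor whose mRNA is translated more efficiently when the kinase GCN2 senses uncharged tRNA, or when other kinases phosphorylate the same initiation factor, eIF2. Its protein level is therefore set largely by translation, which mRNA levels do not show. ATF4 pairs with C/EBP family proteins at C/EBP-ATF response elements and raises genes for amino acid synthesis, uptake and tRNA charging. In proliferating cells the same programme supports serine synthesis from glycolysis and the passage of serine carbon through the mitochondrial folate pathway.

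The FPKM of replicate 1 formed one table (the first), and those of b and c another (the second), so genotypes were compared inside each table. The second table held 25844650 to 26099857 recovered reads in G3C2 libraries and 22614633 to 28977502 in WT libraries. Depth is unknown for replicate 1. WT replicate c stood apart in that genes of the mitochondrial genome took 13.8% of its summed FPKM, against 4.9 to 8.7% in the 5 other libraries. ZFP36L1 mRNA had FPKM of 238.1, 105.1 and 82.4 in G3C2 replicates 1, b and c, against 165.2, 57.1 and 127.5 in WT, so its mRNA level does not check the label. Of 10 mesenchymal and osteoblast markers, 7 were at 1 FPKM or more in all 6 libraries, with ALPL, COL1A2 and TWIST1 below 1 FPKM throughout. Among the 7, 1 was higher and 1 lower in G3C2 in 3 of 3 pairs, against 17.8% and 18.6% of tested genes. The bone collagen gene COL1A1 had 898.8, 248.4 and 192.1 FPKM in G3C2 and 208.8, 82.1 and 183.8 FPKM in WT (limma adjusted p = 0.278). MSX2, a homeobox factor, was lower by 0.21, 0.30 and 0.30 on the log2 scale in pairs 1, b and c (limma adjusted p = 0.444), and SPARC had a log2 fold change of -0.02. The part of these markers in the results below was not tested. Of 10 markers of other cell types, 9 were below 1 FPKM in every library. The exception was the epithelial marker EPCAM, at 7.08, 3.29 and 3.29 FPKM in G3C2 and 18.7, 6.94 and 3.05 FPKM in WT.

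The promoters of ASNS and CHAC1 are shown because both hold the letters of a C/EBP-ATF response element, searched as TGATGNAA on both strands from 250 bases before to 50 bases after the transcription start. Sequences are RefSeq windows on GRCh38.p14, printed 5′ to 3′ on the gene's strand, with the match in capitals. The ASNS window shown is chr7:97872359-97872658, minus strand, and the CHAC1 window is chr15:40953221-40953520, plus strand. Another ASNS window, chr7:97872116-97872415, held no match. A gene was counted as holding a match if any of its windows did.
ASNS: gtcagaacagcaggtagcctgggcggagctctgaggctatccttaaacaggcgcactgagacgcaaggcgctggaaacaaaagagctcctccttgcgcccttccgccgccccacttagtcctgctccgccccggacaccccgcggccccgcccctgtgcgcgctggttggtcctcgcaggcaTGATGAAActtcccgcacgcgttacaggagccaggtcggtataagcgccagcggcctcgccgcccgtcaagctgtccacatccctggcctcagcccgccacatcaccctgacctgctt
CHAC1: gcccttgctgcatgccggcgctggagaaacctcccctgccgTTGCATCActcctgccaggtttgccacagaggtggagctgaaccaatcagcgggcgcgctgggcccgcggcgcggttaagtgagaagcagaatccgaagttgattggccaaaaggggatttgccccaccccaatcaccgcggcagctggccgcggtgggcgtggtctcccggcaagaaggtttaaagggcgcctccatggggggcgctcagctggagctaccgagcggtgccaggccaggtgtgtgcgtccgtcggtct
The ASNS match began 68 bases before the start on the gene's own strand, and the CHAC1 match 209 bases before the start on the opposite strand, where it reads TGATGCAA. Of the 8 members with a window, these 2 held a match, against 4.46% of 27305 genes searched. The windows of ATF4, DDIT3, TRIB3, PHGDH, PSAT1 and MTHFD2 held none, which says only that these letters are not in those 300 bases. No window was matched for PSPH and SHMT2.

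Within the second table, ATF4 itself had the highest level of the 10 genes, with a mean of 167 FPKM over 4 libraries (range 139 to 236), above 98.8% of tested genes. MTHFD2, the mitochondrial methylenetetrahydrofolate dehydrogenase, followed at 51.0 FPKM (35.0 to 84.7). SHMT2, the mitochondrial serine hydroxymethyltransferase, had 33.7 FPKM (25.4 to 49.9), PSAT1, the serine pathway aminotransferase, 32.3 (26.4 to 37.1), and PHGDH, which commits glycolytic carbon to serine, 28.6 (23.2 to 32.5). In FPKM, MTHFD2 was above the other 3 in each of the 4 libraries, whereas the ranges of SHMT2, PSAT1 and PHGDH overlap. Whole reads in this table were recovered with joined exon lengths. These are 3.57 times the principal transcript for PHGDH, 1.91 times for SHMT2, 1.09 for MTHFD2 and 1.0 for PSAT1. The order of these 4 genes therefore depends on the length used, and an order on principal lengths was not tested. PSPH, the phosphatase that completes serine synthesis, had 11.5 FPKM (9.79 to 13.1), and TRIB3, a pseudokinase that feeds back on ATF4, 11.1 (8.48 to 14.4). Their ranges overlap as well. DDIT3, the stress transcription factor CHOP, had 5.95 FPKM (4.13 to 9.40) and CHAC1, an enzyme that degrades glutathione, 2.74 (1.51 to 5.64). The synthetic enzymes other than ASNS thus lay above the stress-end genes DDIT3 and CHAC1 in both tables. In the first table the order was ATF4, PHGDH, MTHFD2, ASNS, SHMT2, PSAT1, PSPH, TRIB3, DDIT3 and CHAC1, with means of 2 libraries between 327 and 4.48 FPKM.

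**Figure D1:**
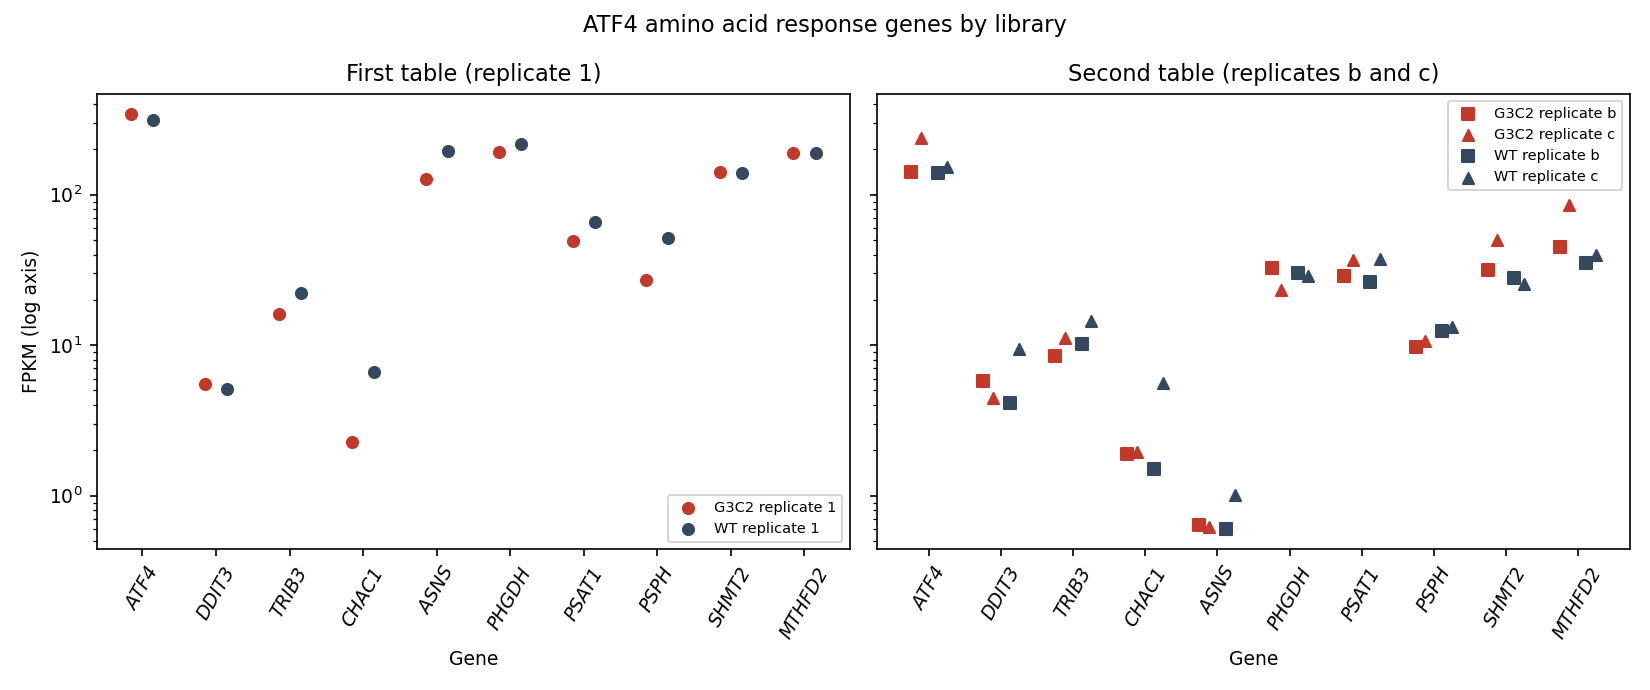
FPKM of each gene (log axis) in each library, with the first table on the left and the second on the right, G3C2 in red and WT in dark blue. ASNS is near 161 FPKM in the first table and near 0.716 FPKM in the second, while the other 9 genes lie above 1 FPKM in every library.

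ASNS, which makes asparagine from aspartate, was abundant in one table and close to 0 in the other. It had 127.0 FPKM in G3C2 replicate 1 and 195.2 in WT replicate 1 in the first table. In the second table its replicates b and c had 0.635 and 0.617 FPKM in G3C2, against 0.605 and 1.01 in WT, from 62 to 114 recovered reads per library. On log2(mean FPKM + 1), its first-table level exceeded its second-table level by 6.56, a larger gap than in 99.7% of 12152 tested protein-coding genes, whose median was 1.25. In GENCODE 29, 1985 of the 2356 bases of the principal ASNS transcript (84.3%) lie in exons of AC079781.5 (ENSG00000284707), a same-strand processed transcript that spans the gene. AC079781.5 was listed in the second table alone. No other member had more than 4.47% of its principal transcript shared with a same-strand gene. The part of this overlap in the low ASNS values was not tested, and ASNS in replicates b and c is given below as uncertain.

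PHGDH had the next largest gap, 2.79, above 93.4% of genes. Its annotated exons join to 9217 bases, 3.57 times the 2585 bases of its principal transcript, and joined exon lengths gave whole reads in the second table. DDIT3 had the smallest, -0.14. Of its 1307 exon bases, 39.6% are shared with other genes, among them MARS on the opposite strand, so reads of DDIT3 and its neighbours may be split. Exons of opposite-strand genes share 33.2% of MTHFD2 and 9.51% of SHMT2. No strand setting was given, so reads there cannot be told apart. The other members, ATF4, TRIB3, CHAC1, PSAT1 and PSPH, share no exon base with another annotated gene and had gaps between 0.55 and 1.69.

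**Figure D2:**
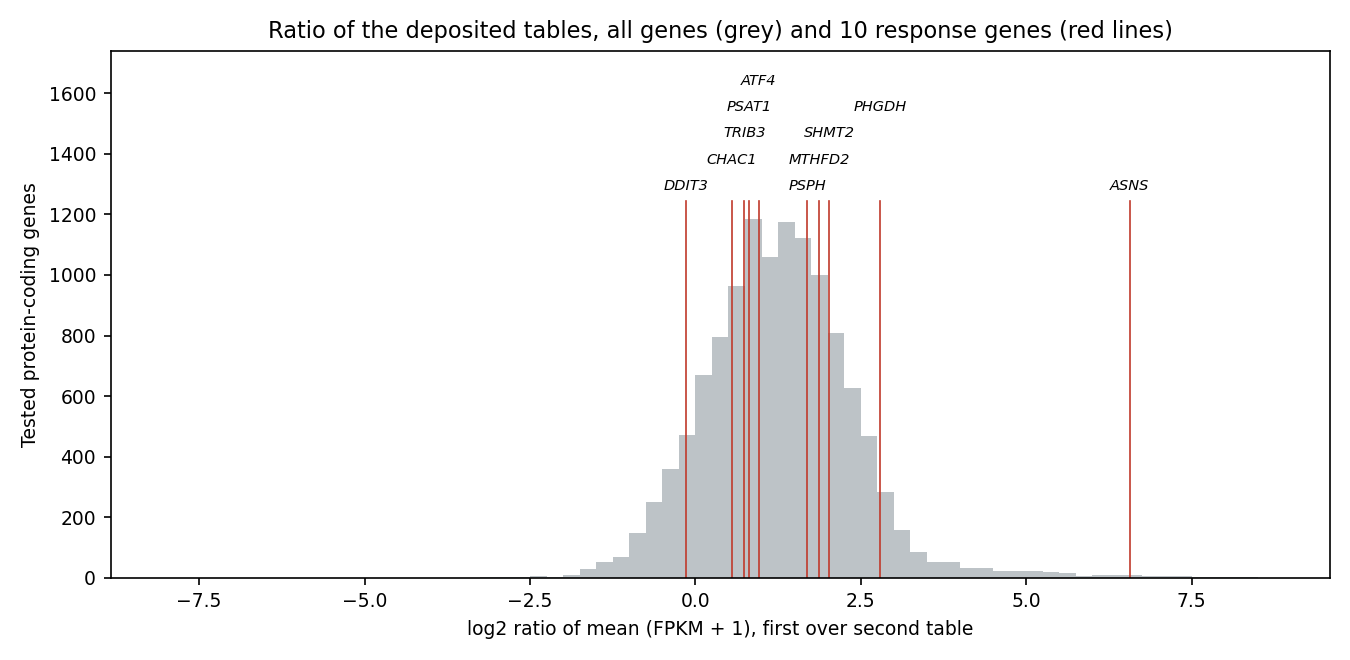
Number of tested protein-coding genes (vertical axis) by the log2 ratio of mean FPKM + 1, first over second table (horizontal axis), with each of the 10 genes as a red line. ASNS at 6.56 lies far to the right of the median of 1.25, and DDIT3 at -0.14 lies on the left side.

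Setting G3C2 against WT addresses how the response genes stand when ZFP36L1 is labelled deficient. None of the 10 genes passed the test over all genes (limma, Benjamini-Hochberg adjusted p between 0.298 and 0.862), where 0.0467% of tested genes passed, 0.02% as higher and 0.0267% as lower. These were 3 higher and 4 lower genes, and 0 and 1 with the replicate label as a block. None of the 10 passed by limma-voom on recovered reads either. At an unadjusted p under 0.05, 1 member was lower, PSPH, and 0 were higher, against 7.43% and 6.19% of tested genes. The median log2 fold change of the 10 was -0.13, against 0.01 over all tested genes. By replicate pair, 3 members (ATF4, SHMT2 and MTHFD2) were higher in G3C2 in 3 of 3 pairs and 2 (TRIB3 and PSPH) were lower in 3 of 3, against 17.8% and 18.6% of tested genes. A difference of at least 1 on the log2 scale was seen for CHAC1 alone in pair 1, as lower, against 3.48% of tested genes lower and 1.75% higher. No member differed by as much in pair b, against 1.4% of tested genes higher and 0.927% lower. In pair c it was seen for MTHFD2 as higher and CHAC1 as lower, against 8.74% and 5.0%. No member's difference varied between the tables at an unadjusted p under 0.05, against 2.86% of tested genes. In bulk RNA, fewer expressing cells and less RNA per cell cannot be told apart. Fold changes are on log2(FPKM + 1), G3C2 minus WT, and understate the change of low genes such as CHAC1 and, in the second table, ASNS.

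ATF4 (ENSG00000128272, chr22:39519695-39522685, plus strand) had 342.1, 141.3 and 236.2 FPKM in G3C2 replicates 1, b and c, against 311.0, 138.5 and 153.6 FPKM in WT. Its G3C2 value was above WT by little in pairs 1 and b and by 1.54-fold in pair c. Within the second table the genotypes overlapped, since G3C2 replicate b lay below WT replicate c. The log2 fold change was 0.26 (SE 0.25, n = 3 per genotype, 95% interval -0.34 to 0.86, limma adjusted p = 0.669), and with quantile normalization it was 0.00. Without G3C2 replicate c it was 0.03. DDIT3 (ENSG00000175197, chr12:57516588-57521737, minus strand), a partner of C/EBP proteins that ATF4 induces under prolonged stress, had 5.50, 5.80 and 4.48 FPKM in G3C2 and 5.13, 4.13 and 9.40 FPKM in WT. It was higher in G3C2 in pairs 1 and b and lower in pair c. Its log2 fold change was -0.14 (SE 0.28, limma adjusted p = 0.851), which turned to 0.25 without replicate c and to 0.18 without WT replicate c.

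TRIB3 (ENSG00000101255, chr20:362835-397559, plus strand) was lower in G3C2 in every pair, with 16.0, 8.48 and 11.2 FPKM in G3C2 against 22.3, 10.2 and 14.4 FPKM in WT. Within the second table the genotypes overlapped, since G3C2 replicate c lay above WT replicate b. The log2 fold change was -0.35 (SE 0.19, 95% interval -0.80 to 0.11, limma adjusted p = 0.473). CHAC1 (ENSG00000128965, chr15:40952962-40956519, plus strand) had 2.28, 1.89 and 1.94 FPKM in G3C2, against 6.67, 1.51 and 5.64 FPKM in WT. Within the second table, WT replicate b, with 92 recovered reads, lay below both G3C2 libraries, while the WT values of pairs 1 and c were about 3 times the G3C2 ones (G3C2 over WT 0.34 in pairs 1 and c). The log2 fold change was -0.73 (SE 0.38, 95% interval -1.65 to 0.18, limma adjusted p = 0.456). Leaving out replicate b gave -1.20, which passed (limma adjusted p = 0.0357), in a fit with 1 residual degree of freedom that called 60 genes higher and 151 lower. Leaving out WT replicate c moved it the other way, to -0.40 (limma adjusted p = 0.843). ASNS (ENSG00000070669, chr7:97852118-97872542, minus strand), with the levels given above, was lower in G3C2 by 0.62 on the log2 scale in pair 1. With the second table's uncertain values included, its log2 fold change was -0.30 (SE 0.17, limma adjusted p = 0.492).

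Of the serine enzymes, only PSPH was lower in every pair, and differences between the 3 enzymes were not tested. PSPH (ENSG00000146733, chr7:56011051-56051604, minus strand) had 27.0, 9.79 and 10.6 FPKM in G3C2, against 51.8, 12.4 and 13.1 FPKM in WT. All G3C2 values lay below all WT values within each table, as in 14.8% of tested genes. Its log2 fold change was -0.51 (SE 0.18, 95% interval -0.93 to -0.08), with an unadjusted p of 0.0272 and a limma adjusted p of 0.298. The difference was -0.92 in pair 1 and -0.31 and -0.28 in pairs b and c, and a difference between the tables was not called (limma adjusted p = 0.948). PHGDH (ENSG00000092621, chr1:119648411-119744226, plus strand) had 193.0, 32.5 and 23.2 FPKM in G3C2 and 216.1, 30.2 and 28.7 FPKM in WT. PSAT1 (ENSG00000135069, chr9:78297143-78330093, plus strand) had 49.5, 29 and 36.5 FPKM in G3C2 and 65.3, 26.4 and 37.1 FPKM in WT. Both were lower in G3C2 in pairs 1 and c and higher in pair b, with log2 fold changes of -0.12 (SE 0.18, 95% interval -0.56 to 0.32) and -0.10 (SE 0.21, -0.60 to 0.41). Their limma adjusted p were 0.798 and 0.862, and the sign of PSAT1 turned in the second table alone (0.05).

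The mitochondrial folate enzymes were the members with G3C2 values above all WT values within each table, as in 14.9% of tested genes. SHMT2 (ENSG00000182199, chr12:57229327-57234935, plus strand), which splits serine into glycine and a one-carbon unit, had 141.1, 31.4 and 49.9 FPKM in G3C2, against 139.3, 28 and 25.4 FPKM in WT. Pair 1 was nearly equal, and G3C2 replicate c stood above the other second-table libraries. MTHFD2 (ENSG00000065911, chr2:74198562-74217565, plus strand), which oxidises that unit, had 189.6, 44.6 and 84.7 FPKM in G3C2, against 188.3, 35.0 and 39.6 FPKM in WT. It showed the same pattern, with G3C2 over WT at 1.01, 1.28 and 2.14 in pairs 1, b and c. The log2 fold changes were 0.37 for SHMT2 (SE 0.23, 95% interval -0.19 to 0.94, limma adjusted p = 0.520) and 0.48 for MTHFD2 (SE 0.29, -0.23 to 1.19, limma adjusted p = 0.517). Without G3C2 replicate c they were 0.14 and 0.15, and without replicate c altogether 0.09 and 0.18. With quantile normalization within each table they were 0.22 and 0.29. SHMT2 and DDIT3 lie at 57.23 and 57.52 Mb of chromosome 12, in a stretch from 50 to 60 Mb where 139 protein-coding genes had median differences, centred on the protein-coding median, of 0.43, 0.29 and 0.32 in pairs 1, b and c. On that scale SHMT2 had 0.09, 0.17 and 0.84 and DDIT3 0.15, 0.42 and -1.03.

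**Figure D3:**
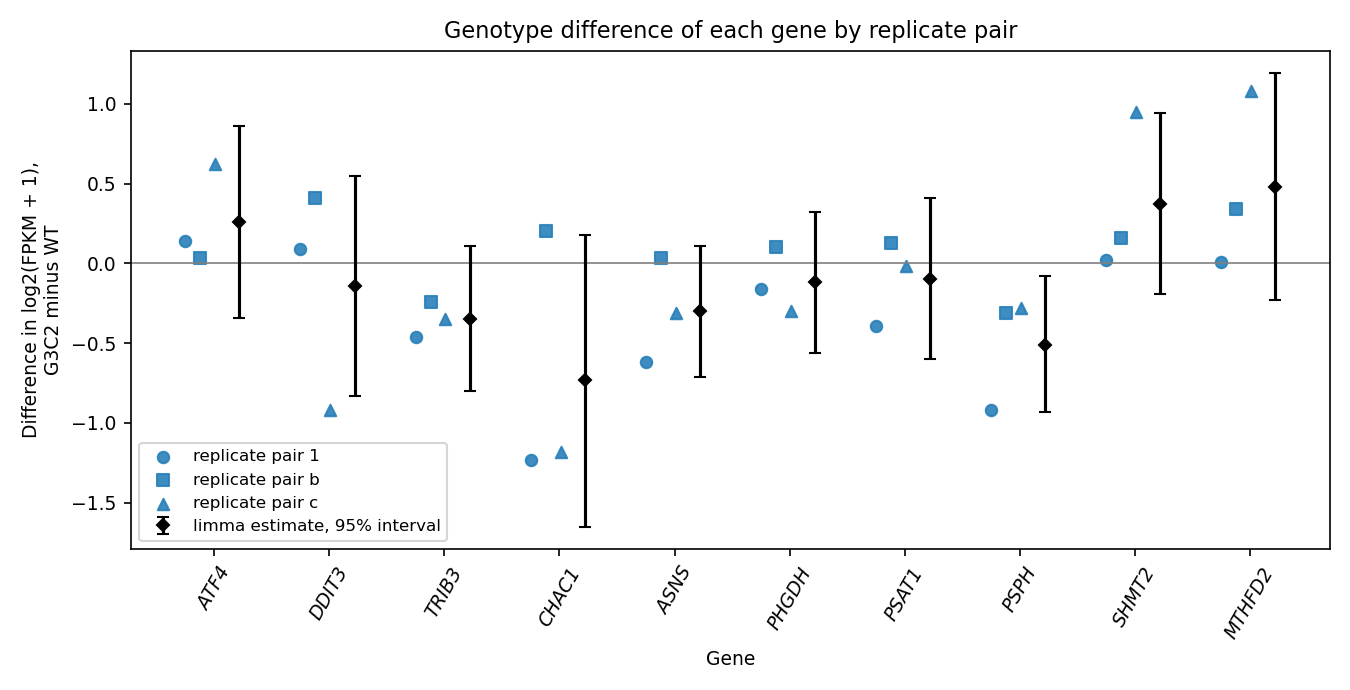
Difference in log2(FPKM + 1), G3C2 minus WT, of each gene in replicate pairs 1, b and c (blue), with the limma estimate and its 95% interval (black). TRIB3 and PSPH lie below 0 in every pair and ATF4, SHMT2 and MTHFD2 above 0, and only the PSPH interval (-0.93 to -0.08) leaves out 0 before adjustment.

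Replicates b and c of a genotype share a table and can be set side by side, with 1 library each and so with no test. In WT, 2 members, DDIT3 and CHAC1, were at least 2-fold higher in replicate c than in b on the log2(FPKM + 1) scale (differences of 1.02 and 1.41), against 1.99% of tested genes, and 0 were lower by as much, against 1.27%. Their recovered reads were 312 and 295 in WT replicate c and 160 and 92 in WT replicate b. In G3C2 no member differed by 2-fold, against 2.36% of tested genes higher and 2.59% lower in replicate c. DDIT3 and CHAC1 there had differences of -0.31 and 0.03. TRIB3, with 0.36 in G3C2 and 0.46 in WT, and PSAT1, with 0.32 and 0.48, were higher in replicate c of both genotypes.

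ATF4 and the mitochondrial folate enzymes showed the larger c to b gap in G3C2 instead. ATF4 differed by 0.74 in G3C2 and 0.15 in WT, MTHFD2 by 0.91 and 0.18, and SHMT2 by 0.65 and -0.13. PHGDH was lower in replicate c in both, by 0.47 in G3C2 and 0.08 in WT. PSPH differed little between these replicates, with 0.11 in G3C2 and 0.08 in WT. Over all tested genes, 59.8% had opposite signs in the 2 genotypes, as did 3 of the 10 members (DDIT3, ASNS and SHMT2). SHMT2 was higher in replicate c in G3C2 and lower in WT, as were 36.0% of tested genes, and DDIT3 and ASNS were the other way round, as were 23.8%. For ASNS the G3C2 difference was only -0.02, from 62 reads in replicate c and 75 in replicate b of the table where its values are uncertain. The shared labels b and c do not align these libraries (r = -0.17 between the genotypes' deviations across genes), so the pair values of these members depend on which libraries are paired. The share of the mitochondrial genome was 7.4% and 6.7% in G3C2 replicates b and c and 8.7% and 13.8% in WT replicates b and c. Summed FPKM was 258735 and 319282 in G3C2 replicates b and c and 264495 and 235190 in WT replicates b and c. The part of either in these differences was not tested.

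**Figure D4:**
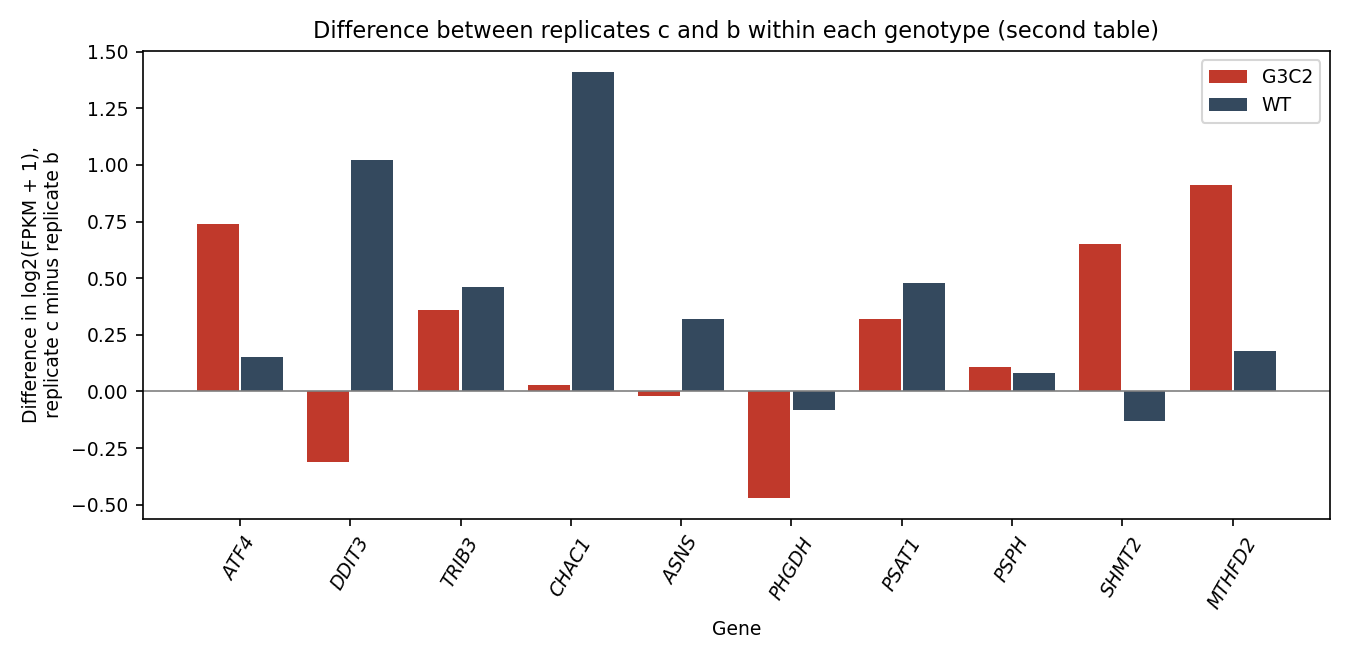
Difference in log2(FPKM + 1) between replicates c and b within G3C2 (red) and within WT (dark blue), 1 library each. DDIT3 (1.02) and CHAC1 (1.41) stand out in WT, and MTHFD2 (0.91), ATF4 (0.74) and SHMT2 (0.65) in G3C2.

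Other genes of the response, in 7 lists of 133 further genes, were examined in the same fit, and none passed over all genes. The share of genes at an unadjusted p under 0.05 was 13.6% over all 15001, with 6.19% higher and 7.43% lower. Of 18 genes that sense amino acids or control ATF4 translation, 0 were higher and 1 lower at that level, with a median log2 fold change of 0.02. EIF2AK4, the kinase GCN2, had 51.6, 8.0 and 9.22 FPKM in G3C2 and 59.3, 10.3 and 10.0 FPKM in WT (log2 fold change -0.21, SE 0.13). The most abundant of these kinases, the haem-regulated EIF2AK1, had a log2 fold change of -0.28 (SE 0.19).

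Among 13 tested bZIP partners and stress factors, 2 were higher and 1 lower at an unadjusted p under 0.05, with a median of 0.06. The lower one was ATF3, a repressor that ATF4 induces, with 20.6, 3.01 and 6.0 FPKM in G3C2 against 40.9, 8.36 and 15.7 FPKM in WT. All G3C2 values of ATF3 lay below all WT values within each table, as in 14.8% of tested genes. Its log2 fold change was -1.14 (SE 0.30, limma unadjusted p = 0.00856, limma adjusted p = 0.211). CEBPB, a C/EBP partner of ATF4, had 23.1, 61.4 and 41.4 FPKM in G3C2 and 13.7, 36.0 and 35.2 FPKM in WT (0.57, SE 0.19, limma adjusted p = 0.286). Both also belong to the list of other ATF4 targets, of which 28 of 30 were tested, 2 were higher and 2 lower at an unadjusted p under 0.05, and the median was -0.13. Log2 fold changes in that list ran from -1.83 (GDF15) to 0.69 (ATF5). GPT2, an alanine aminotransferase of that list, had differences of -0.89, -0.12 and -0.07 in pairs 1, b and c (limma adjusted p = 0.477).

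Of 14 tested amino acid transporters, 0 were higher and 3 lower at an unadjusted p under 0.05, and 0 were higher and 4 lower in 3 of 3 pairs. Over all tested genes the shares were 6.19% and 7.43% at that p, and 17.8% and 18.6% in 3 of 3 pairs. The list's median was -0.35. SLC43A1, a carrier of branched-chain amino acids, had 8.61, 3.55 and 4.53 FPKM in G3C2 against 21.3, 6.71 and 6.54 FPKM in WT (-0.81, SE 0.18, limma adjusted p = 0.177). SLC1A4, a carrier of serine and alanine, had 24.6, 7.63 and 6.37 FPKM in G3C2 against 37.9, 8.79 and 10.7 FPKM in WT (-0.49, SE 0.15, limma adjusted p = 0.263). The genotypes did not overlap within either table for 4 of the 14, all lower in G3C2, against 14.8% of tested genes. These 2 carriers and SLC38A2 were among them. SLC38A2, the most abundant and an amino acid-regulated carrier, had -0.21 (SE 0.19).

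Of 20 cytosolic aminoacyl-tRNA synthetases, 1 was higher and 1 lower at an unadjusted p under 0.05, with a median of 0.02. GARS, for glycine, had 356.1, 46.4 and 62.5 FPKM in G3C2 against 673.1, 67.5 and 81.9 FPKM in WT (-0.61, SE 0.22, limma adjusted p = 0.304). WARS, for tryptophan, had 98.4, 15.3 and 17.7 FPKM in G3C2 against 77.5, 6.91 and 9.49 FPKM in WT (0.74, SE 0.20, limma adjusted p = 0.215). WARS lies on chromosome 14 beyond VIPAS39, where 112 protein-coding genes had median differences, centred on the protein-coding median, of 0.77, 0.56 and 0.77 in pairs 1, b and c.

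Of 22 tested genes of one-carbon and glycine metabolism other than SHMT2 and MTHFD2, 2 were higher and 0 lower at an unadjusted p under 0.05. Over all tested genes the shares were 6.19% and 7.43%. The list's median log2 fold change was 0.02, against 0.01 over all tested genes. By pair its medians were -0.30, -0.08 and 0.48 in pairs 1, b and c, against -0.08, -0.01 and 0.07. TYMS, thymidylate synthase, had 142.3, 82.5 and 137.3 FPKM in G3C2 against 101.3, 72.3 and 50.9 FPKM in WT (0.70, SE 0.26, limma adjusted p = 0.330). From replicate b to c, 15 of the 22 were higher in G3C2 and lower in WT, against the 36.0% of tested genes. So were 11 of 20 synthetases and 10 of 18 sensing and control genes, so this was not particular to the list. Their pair medians were -0.34, -0.03 and 0.44, and -0.23, -0.12 and 0.21. The counts were 4 of 13 bZIP and stress factors, 6 of 28 other ATF4 targets, 3 of 14 transporters and 5 of 22 endoplasmic reticulum genes. MTHFD1, the cytosolic folate enzyme, showed 0.61 in G3C2 and -0.31 in WT.

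**Figure D5:**
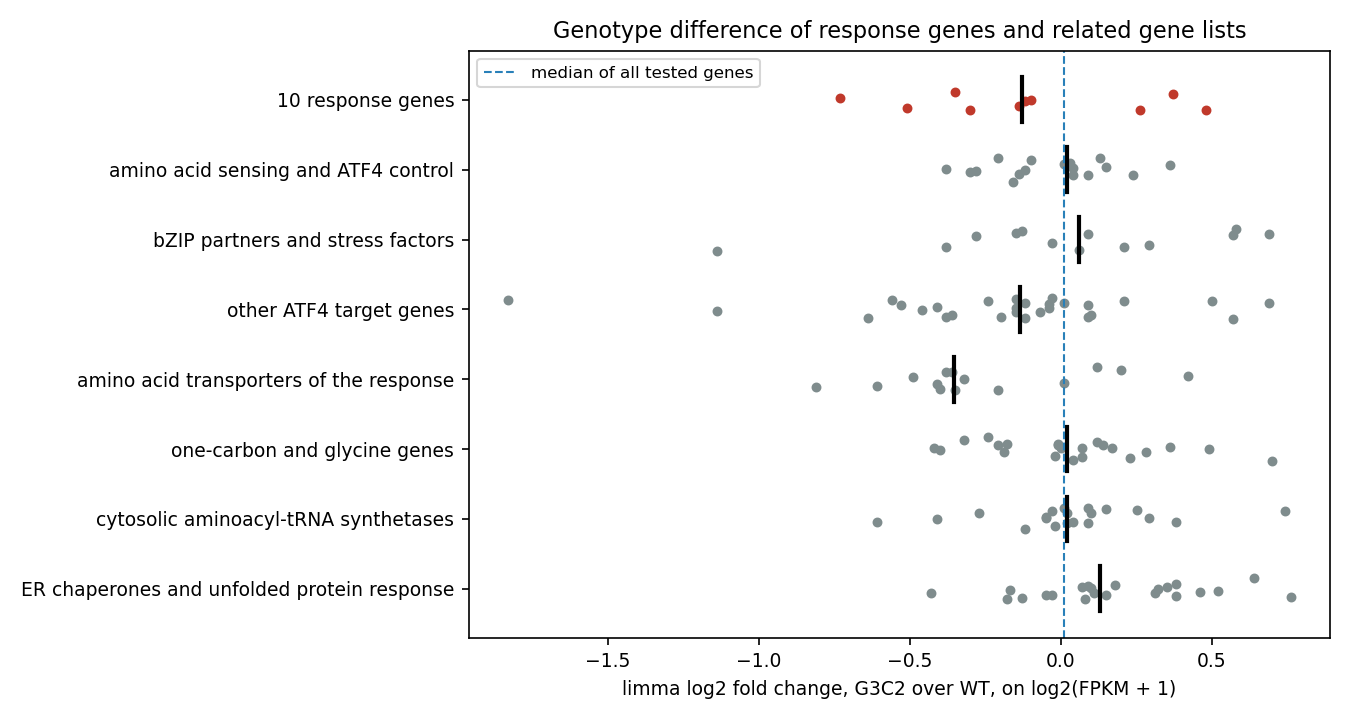
limma log2 fold changes, G3C2 over WT, of the 10 response genes (red) and of the genes in 7 related lists (grey), with each list's median as a black bar and the median of all tested genes as a dashed line. The transporter median of -0.35 lies lowest and the median of the endoplasmic reticulum list, 0.13, highest.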

How the data were processed

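Poly(A) RNA of 6 U2OS libraries was sequenced, and gene values were deposited by the authors as FPKM in 2 tables. HISAT2, CASAVA and the build GRCh38.p12 are named in the submitters' processing notes. The counter, annotation and strand setting are not given in the sources used here. Groups and replicates (1, b, c) came from the sample titles. Nothing states whether a genotype's libraries came from separate cultures, so p-values reflect only library-to-library spread, which may be technical.

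Symbols and coordinates came from GENCODE 29 (GRCh38), which matched 56868 of 56982 identifiers. With its exon lengths, 97.3 to 97.4% of non-zero values of the second table were whole reads within 0.02 reads, and 33.9 to 35.6% of the first. The test was limma 3.58.1 (R 4.3.3) on log2(FPKM + 1) with genotype and table as terms and the trend option, and p-values were adjusted by Benjamini and Hochberg's method at 0.05. A gene entered if 2 or more libraries reached an FPKM of 1. The fit was tested on simulated data. Same-labelled libraries deviated together (r = 0.93, 0.80 and 0.60), but the split into tables can give this by itself, and within the second table r was -0.17. Pairs b and c are therefore matched by label only.

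The members and lists were chosen with earlier results of these data known. From each list the genes named were those past the threshold, up to 3 with the largest difference in 1 direction in all pairs at a mean of at least 5 FPKM in each table, and the most abundant. Only some of these are described. Among the other ATF4 targets, the genes at both ends of the range were named too. Alternatives were a pseudocount of 0.1, other filters and scalings, the replicate block, the second table alone, limma-voom on recovered reads, and libraries left out. The second table alone with the block was added after the data were seen. Python 3.11.15, pandas 2.3.3 and matplotlib 3.10.9 were also used.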

Additional observations from a re-analysis of the deposited data

How the results depend on the processing

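None of the 10 genes passed the limma threshold under the 18 alternatives, except CHAC1 without replicate b (-1.20, adjusted p = 0.0357). ATF4, TRIB3, ASNS, PSPH, SHMT2, MTHFD2 and CHAC1 did not change sign, although ATF4 came to 0.00 with quantile normalization (leave-outs 0.03 to 0.45), and CHAC1 (leave-outs -1.20 to -0.40) did not reach the stricter filter, a mean of 5 FPKM. PSAT1 turned to 0.05, against -0.10, in fits of the second table (with or without the replicate block, or by limma-voom). It did the same without replicate 1 or either of its libraries, and the leave-outs of PSAT1 ran from -0.27 to 0.05. Leaving out replicate 1 or either of its libraries leaves every genotype estimate to the second table. Those leave-outs therefore repeat the estimates of the second table alone and are not separate checks. PHGDH turned to 0.01 without G3C2 replicate c (leave-outs -0.26 to 0.01). DDIT3 turned to 0.18 without WT replicate c and to 0.25 without replicate c (leave-outs -0.42 to 0.25). The median difference of the 10 genes lay between -0.34 and -0.07 over the 9 leave-outs, against -0.13. The cause of these changes was not tested, beyond fewer libraries entering.

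Over all genes, the number called higher, against 3, was 0 without a filter, with the replicate block, in the second table by itself (with or without that block) and with limma-voom, and 5 with equal medians. The number called lower, against 4, was 0 without a filter and in the second table by itself (with or without the block), and 1 with the replicate block over both tables and under the stricter filter. Leave-outs gave 0 to 448 higher and 0 to 457 lower. Leave-outs aside, some settings gave no limma call in either direction. In these, an unadjusted limma p under 0.05 held for 2990 of 33895 genes without a filter. It held for 1110 of 15001 with the second table alone and for 853 of 15001 with its block. The depth of replicate 1 is unknown. In the second table ASNS rested on at most 114 reads per library and CHAC1 on 90 to 295, which limits what these libraries can show.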

Other observations

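Chaperones and folding enzymes of the endoplasmic reticulum, raised by other arms of the unfolded protein response, had a median log2 fold change of 0.13. Of 22 tested, 11 were higher and 1 lower in 3 of 3 pairs, against 17.8% and 18.6% of all tested genes. At an unadjusted p under 0.05, 4 were higher and 1 lower, against 6.19% and 7.43% of tested genes. None passed over all genes (lowest limma adjusted p = 0.185). MANF, a secreted stress-induced factor, had 119.7, 66.4 and 64.6 FPKM in G3C2 replicates 1, b and c, against 79.3, 42.1 and 30.5 FPKM in WT (log2 fold change 0.76, SE 0.18, limma adjusted p = 0.188). PDIA4, a disulfide isomerase, had 172.1, 86.1 and 75.4 FPKM in G3C2 against 106.6, 67.3 and 52.6 FPKM in WT. SEL1L, of the degradation machinery, had 164.3, 32.7 and 28.8 FPKM in G3C2 against 106.6, 18.1 and 20.6 FPKM in WT, and lies in the distal part of chromosome 14 described above. XBP1 had 66.9, 26.9 and 25.3 FPKM in G3C2 and 65.4, 26.9 and 34.4 FPKM in WT.

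The mean profile of the 10 genes, centred within each table on the log2(FPKM + 1) scale, was -0.18, -0.11 and 0.12 in G3C2 replicates 1, b and c, against 0.18, -0.20 and 0.19 in WT. Its spread over 6 libraries is small. Of 2340 other protein-coding genes that passed a mean of 5 FPKM in each table and an SD of 0.3, KAT2A, FADS3, LCAT, MAN2C1 and XAGE5 had the profiles most like it (Pearson r between 0.970 and 0.989 over 6 libraries that share 2 tables). Among the 10 genes, PSAT1 was most like the mean of the others (r = 0.99), followed by TRIB3 (0.81) and ASNS (0.76), while PHGDH had r = -0.36 and SHMT2 -0.01.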
